A study of Mus musculus with 2 samples.

Results

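The 10 genes examined here encode receptors of the immunoglobulin superfamily through which T cells receive co-stimulatory or inhibitory signals. They are *Cd28*, *Icos*, *Ctla4*, *Pdcd1*, *Lag3*, *Tigit*, *Cd96*, *Cd226*, *Btla*, and *Cd160*, taken by symbol from a list of co-stimulatory and checkpoint receptors, and all 10 were found among the 48321 genes listed in the count tables. RNA-seq was carried out on mature thymocytes sorted as CD4-negative from MHC-II0:CD8ab Tg mice on a C57Bl/6 background, in 2 replicates. These mice lack the I-Ab chain of MHC class II, carry *Cd8* alleles disrupted in both the *Cd8a* and *Cd8b1* genes, and express CD8α and CD8β cDNAs from the *Rosa26* locus once Cre, driven by *Cd4* regulatory sequences, has acted in thymocytes. Since *Cd4* is switched on before thymocytes choose a lineage, this Cre acts in the precursors of both CD4 and CD8 T cells. The titles of the libraries name cells without CD4 and CD8 while their cell type fields name CD8+ cells. Age, sex, and the number of mice behind each library are not given in the sources used here, and no label says that the replicates are separate mice. The libraries stood apart in genes of the sex chromosomes, since replicate 1 had 2450 counts of *Ddx3y* on the Y chromosome and 34 of *Xist*, expressed from the inactive X chromosome, against 0 and 25266 in the other library. They therefore hold RNA from different animals, and a difference between them cannot be told apart from one that goes with the sex of the donors. None of the 10 genes lies on a sex chromosome. Both libraries share 1 condition, and the values are levels in these cells with no comparison of genotypes.

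CD28 binds CD80 and CD86 on antigen-presenting cells and lowers the threshold for T cell activation, and CTLA-4 competes with it for the same ligands. ICOS and PD-1 belong to the same family and bind ICOSL and the PD-1 ligands. LAG-3 is a relative of CD4 that binds MHC class II. TIGIT, CD96, and CD226 all bind CD155 and related nectins, and CD226 activates where TIGIT inhibits. BTLA and CD160 bind HVEM, a member of the TNF receptor family. In the thymus, such receptors are known from cells that have received strong TCR signals, from regulatory T cells, and from innate-like T cells.

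A total of 16732644 reads were counted on genes in replicate 1 and 16245849 in replicate 2, and each gene's count was scaled to these totals as CPM. A gene with 3 counts, taken as the limit of detection, would lie at 0.179 CPM in the former and 0.185 CPM in the latter library. This limit and all intervals given cover counting error only. To compare genes with each other, the CPM was divided by the length of all annotated exons of a gene in kb. Genes of mature αβ T cells were high, with 8 of 8 at 1 CPM or more in both libraries, and *Cd8b1* was at 526 CPM per kb against 0.295 CPM per kb for *Cd4*, which had 12 and 27 counts. Reads of the transgenic CD8 cDNAs may count toward *Cd8b1* and toward *Cd8a*, which was at 45.3 CPM per kb. The *Cd8* alleles of these mice are described as without the coding regions of both chains, and the Cre acts in both lineages. The methods of the study describe the replacement of an exon in each gene. Reads of the exons that remain may therefore count as well, and transgenes and disrupted alleles were not told apart. For these reasons the levels of *Cd8a* and *Cd8b1* were not taken to mark the CD8 lineage here.

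All 10 receptors had at least 1 CPM in both libraries, a level that 48.9% of the 21163 protein-coding genes listed also reached. Together they held 612 and 665 CPM. The median of their levels per length was 15.2 CPM per kb, and that of the 11833 protein-coding genes with a sum of at least 10 counts was 5.71 CPM per kb. The levels ranged from 2.99 CPM for *Ctla4* to 185 CPM for *Cd96* in replicate 1 and from 3.26 to 173 CPM in replicate 2, as shown in the plot of CPM by library. In bulk RNA, fewer cells that express a gene and less RNA per cell cannot be told apart.

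**Figure D1:**
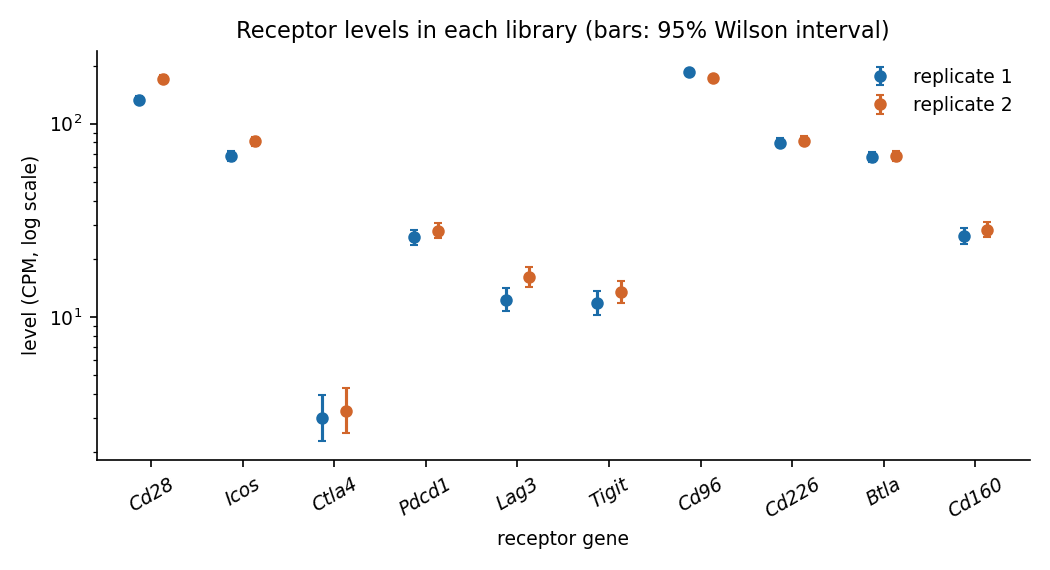
Level of each receptor gene in CPM (log scale) in replicate 1 and replicate 2, with the 95% Wilson interval of the count in that library as bars. *Ctla4* lies lowest, at 2.99 and 3.26 CPM, and *Cd96* highest, at 185 and 173 CPM.

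*Cd28*, the receptor of the main co-stimulatory signal, had 2222 counts in replicate 1 and 2782 in replicate 2. These are 133 CPM, with a Wilson 95% interval of 127 to 138 CPM, and 171 CPM, with an interval of 165 to 178 CPM. The intervals did not overlap, and the mean was 152 ± 27.2 CPM (SD, n = 2). Per length, *Cd28* was at 24.8 ± 4.44 CPM per kb and exceeded 85.8% of these 11833 protein-coding genes with at least 10 counts, to which all such shares refer. *Icos*, which encodes an inducible relative of CD28 that helps T cells to provide help and to persist, had 1141 and 1320 counts, or 68.2 and 81.3 CPM. Its mean was 74.7 ± 9.24 CPM, and its level per length was 21.8 ± 2.69 CPM per kb. *Cd28* and *Icos* overlapped in their range per length, with *Icos* from 19.9 to 23.7 CPM per kb and *Cd28* from 21.7 to 27.97 CPM per kb.

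*Ctla4*, which encodes the inhibitory competitor of CD28, was the lowest of the 10 genes. Its counts were 50 and 53, or 2.99 and 3.26 CPM, with Wilson 95% intervals of 2.27 to 3.94 CPM and 2.49 to 4.27 CPM. The intervals overlapped, and both libraries were above the limit of detection. At 1.34 ± 0.0832 CPM per kb (SD, n = 2), *Ctla4* exceeded 24.96% of the protein-coding genes with at least 10 counts. *Pdcd1* encodes PD-1, an inhibitory receptor that recruits phosphatases to the TCR and CD28. It had 431 and 454 counts, or 25.8 and 27.9 CPM, and its level per length was 13.9 ± 0.801 CPM per kb. The intervals of *Pdcd1* in the 2 libraries, 23.4 to 28.3 CPM and 25.5 to 30.6 CPM, overlapped.

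*Lag3*, the MHC class II receptor among these genes, had 205 counts in replicate 1 and 262 in replicate 2. Its levels were 12.3 CPM, with an interval of 10.7 to 14.0 CPM, and 16.1 CPM, with an interval of 14.3 to 18.2 CPM. Replicate 2 was the higher library, and the mean was 14.2 ± 2.74 CPM (SD, n = 2). Per length, *Lag3* was at 6.73 ± 1.30 CPM per kb, which exceeded 54.0% of the protein-coding genes with at least 10 counts. *Lag3* was thus detected in both libraries of these mice without I-Ab.

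Among the nectin receptors, *Cd96* was by far the highest. The counts of this gene were 3088 and 2813, or 185 and 173 CPM, and its mean was 179 ± 8.06 CPM (SD, n = 2). At 81.9 ± 3.69 CPM per kb it exceeded 97.0% of the protein-coding genes with at least 10 counts, and neither library of any other of the 10 receptors came near it. *Cd226*, which encodes the activating receptor for CD155 also known as DNAM-1, had 1335 and 1329 counts, or 79.8 and 81.8 CPM, and 16.5 ± 0.292 CPM per kb. The gene (chr18:89176967-89272229, GRCm38, plus strand) lies between *Rttn*, at 1.72 CPM per kb, and *Dok6*, with 0 and 3 counts. *Tigit*, its inhibitory counterpart, had 197 and 219 counts, or 11.8 and 13.5 CPM. Its CPM was among the lowest, but *Tigit* has only 919 bases of exon, and its level per length was 13.7 ± 1.31 CPM per kb. Of the windows of 50 bases in the transcript of *Tigit*, 4.37% also occur in transcripts of other genes, and reads with more than a single alignment were left out of the counts.

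The HVEM receptors were both found. *Btla*, which encodes an inhibitory receptor, had 1129 counts in replicate 1 and 1110 in replicate 2, or 67.5 and 68.3 CPM. The libraries hardly differed, and its level per length was 19.99 ± 0.177 CPM per kb. This value depended on the exons taken as its length, since it was 42.5 CPM per kb with the length of the principal transcript, 1598 bases, in place of the 3396 bases of all its exons. *Cd160*, a receptor anchored in the membrane by a lipid and best known from NK cells and cytotoxic T cells, had 439 and 459 counts, or 26.2 and 28.3 CPM, and 10.3 ± 0.540 CPM per kb. On the opposite strand, 68 bases of its exons overlap *Pdzk1*, and the strand setting of the counting is not known.

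Per length, the order from the highest was *Cd96*, *Cd28*, *Icos*, *Btla*, *Cd226*, *Pdcd1*, *Tigit*, *Cd160*, *Lag3*, and *Ctla4*, and 8 of the 10 genes held the same rank in both libraries. *Cd96* was 3.30-fold above *Cd28*, and *Lag3* was 5.02-fold above *Ctla4*. The fold from the highest to the lowest gene was 61.1. The ranges over the replicates overlapped for 3 of the 9 pairs of neighbours, *Cd28* with *Icos*, *Icos* with *Btla*, and *Pdcd1* with *Tigit*. Within each library, however, *Cd28* was above *Icos*, at 21.7 against 19.9 CPM per kb in replicate 1 and 27.97 against 23.7 in replicate 2. *Icos* and *Btla* were nearly equal in replicate 1, at 19.88 and 19.87 CPM per kb, and *Pdcd1* and *Tigit* changed places between the libraries. With the length of the principal transcript, *Btla* came before *Cd28* and *Icos*, and no other gene changed its place relative to the rest. The plot of levels per length shows *Cd96* apart from the others at the top and *Ctla4* apart at the bottom.

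**Figure D2:**
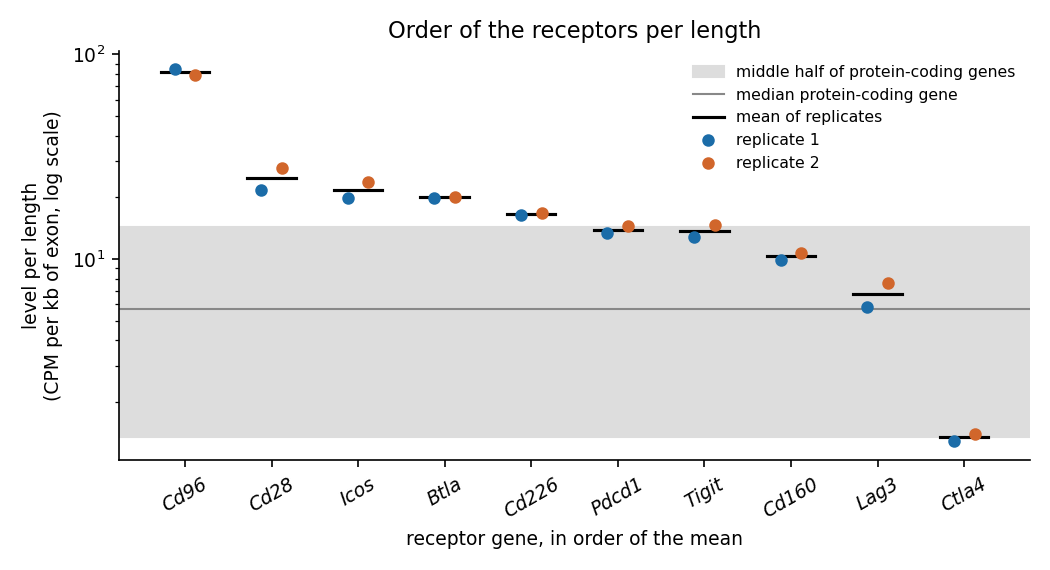
Level of each receptor in CPM per kb of annotated exon (log scale), in order of the mean, with points for the replicates and a line for their mean. The grey band spans the quartiles of the protein-coding genes with at least 10 counts summed, 1.35 to 14.4 CPM per kb. *Cd96*, *Cd28*, *Icos*, *Btla*, and *Cd226* lie above it in both replicates.

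Grouped by their ligands, the nectin receptors *Cd96*, *Cd226*, and *Tigit* made up 53.2% ± 2.99 (SD, n = 2) of the summed level per length of the 10 genes. The 4 genes of the CD28 family made up 29.3% ± 2.70, with 27.4% in replicate 1 and 31.2% in replicate 2. The HVEM receptors made up 14.4% ± 0.201 and *Lag3* 3.18% ± 0.496. Per length, the nectin group held the largest share in both libraries, at 55.3% and 51.1%, of which *Cd96* alone made up 41.1% and 36.6% of the sum of the 10 genes. In CPM, without regard to length, the order of these groups turned in replicate 2, where the CD28 family summed to 284 CPM and the nectin receptors to 268 CPM, against 230 and 276 CPM in replicate 1.

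Receptors that share a ligand were then set against each other within each library, which does not depend on the library total. *Icos* and *Pdcd1* were also set against *Cd28*, as genes of the same family whose products bind other ligands. *Ctla4* was at 0.0591 of the level per length of *Cd28* in replicate 1, with an exact binomial 95% interval of 0.0437 to 0.0782, and at 0.0501 in replicate 2, with an interval of 0.0374 to 0.0657. On average, *Cd28* was thus 18.4-fold above *Ctla4*, which binds the same ligands. *Tigit* was at 0.785 and 0.877 of *Cd226* per length, with intervals of 0.673 to 0.913 and 0.757 to 1.01, so the interval of replicate 2 included equal levels. With the lengths of the principal transcripts the ratio was 0.722 and 0.806, and the interval of replicate 2, 0.695 to 0.930, no longer did. *Cd96* was 4.96-fold ± 0.311 (SD, n = 2) above *Cd226*. *Btla* was 1.94-fold ± 0.0844 above *Cd160*, and 4.04-fold with the lengths of the principal transcripts. *Icos* was at 0.882 ± 0.0492 and *Pdcd1* at 0.566 ± 0.0690 of the level of *Cd28*. The intervals of *Icos* to *Cd28*, 0.853 to 0.985 in replicate 1 and 0.793 to 0.905 in replicate 2, did not include equal levels. Each of the 6 ratios fell on the same side of 1 in both libraries.

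**Figure D3:**
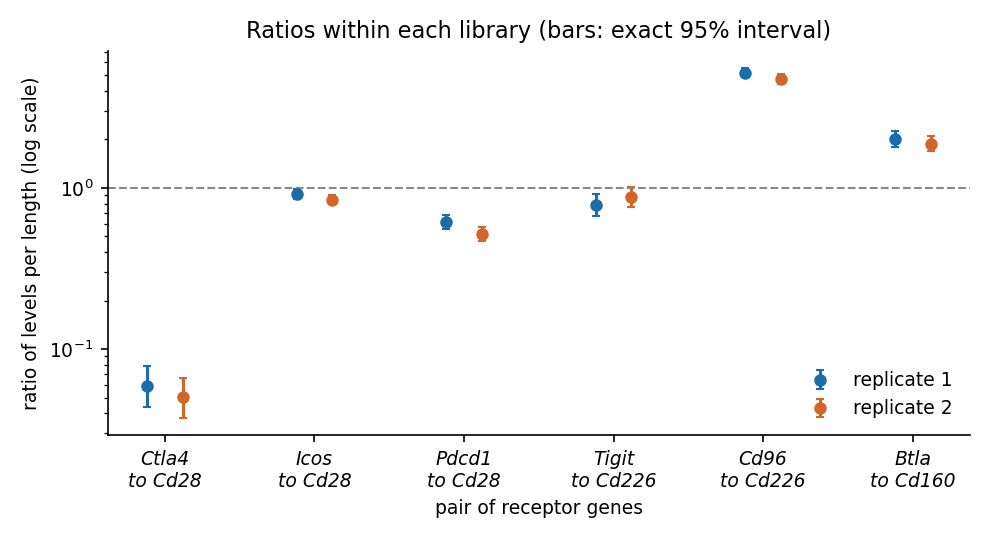
Ratio of the levels per length of pairs of receptor genes (log scale) within replicate 1 and replicate 2, with exact binomial 95% intervals as bars and a dashed line at equal levels. *Ctla4* to *Cd28* lies lowest, at 0.0591 and 0.0501, and *Cd96* to *Cd226* highest, at 5.18 and 4.74.

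Positions were taken from GENCODE M21 on GRCm38, the build onto which the reads were mapped, where all 10 genes are protein-coding. *Cd28* (chr1:60716800-60773359), *Ctla4* (chr1:60887000-60915832), and *Icos* (chr1:60977927-61000320) follow each other on the plus strand with no other protein-coding gene between them. *Ctla4* starts 114 kb after *Cd28* and ends 62.1 kb before *Icos*, so the lowest of the 10 genes lies between the 2 that ranked just below *Cd96*. Beyond this cluster, *Raph1* on the side of *Cd28* was at 0.631 CPM per kb and *Pard3b* on the side of *Icos* had 1 and 2 counts. *Pdcd1* (chr1:94038305-94052553) lies far away on the minus strand of the same chromosome. Its neighbours were *Neu4*, 9.97 kb away with 0 and 2 counts, and *Fam174a*, 1261 kb away with 260 and 277 counts, or 3.38 CPM per kb.

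*Lag3* (chr6:124904361-124911705) lies on the minus strand between *Cd4*, 16.1 kb away, and *Ptms*, 1.98 kb away. *Ptms*, which encodes parathymosin, was at 20.5 CPM per kb, above *Lag3* at 6.73 CPM per kb, and *Cd4* was at 0.295 CPM per kb in these cells sorted as CD4-negative. *Tigit* (chr16:43648867-43664146) and *Cd96* (chr16:46035657-46120251) are on the minus strand and *Btla* (chr16:45224315-45257670) on the plus strand of the same region of chromosome 16, with other genes between them. *Zbtb20*, 6.26 kb from *Tigit*, was at 2.40 CPM per kb, and *Drd3* on its other side had 0 counts. *Plcxd2*, next to *Cd96*, was at 10.8 CPM per kb. *Atg3*, an autophagy gene, was at 15.8 CPM per kb and *Cd200*, which encodes an immunoglobulin-family ligand, at 2.48 CPM per kb on either side of *Btla*. *Cd160* (chr3:96798763-96829351) overlaps *Pdzk1*, which had 108 and 92 counts, or 1.70 CPM per kb, and the nearest genes that do not overlap it were *Rnf115*, at 23.6 CPM per kb, and *Gpr89*, at 5.34 CPM per kb.

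RefSeq promoter windows on GRCm38.p6 were found for 6 of the 10 genes, *Ctla4*, *Pdcd1*, *Tigit*, *Cd96*, *Btla*, and *Cd160*. They were searched, on both strands and over up to 250 bases before the start site, for the letters TGTGGT, which are a core motif of Runx factors such as the Runx3 of the cytotoxic lineage. The motif was found in the windows of *Cd96*, *Tigit*, *Btla*, and *Cd160*, and it occurs in 14.0% of the 32851 windows of all genes. The 4 genes with the motif are thus a count of 4 of 6, and no match was found in the windows of *Ctla4* and *Pdcd1*. The windows of the 3 genes on chromosome 16, of which *Cd96* was the highest of all receptors, and of *Ctla4*, the lowest, are shown with the motif in capitals, read from the gene's own strand and cut where an annotated exon of the gene begins. The RefSeq start site of *Ctla4* lies inside the GENCODE gene, which has a further start upstream. The window of *Tigit* ends short of the GENCODE gene, which begins at chr16:43664146, so the RefSeq and GENCODE starts of *Tigit* differ as well. The windows on the minus strand are chr16:46120252-46120498 for *Cd96* and chr16:43664185-43664434 for *Tigit*. Those on the plus strand are chr16:45224087-45224314 for *Btla* and chr1:60908775-60909024 for *Ctla4*.
Cd96: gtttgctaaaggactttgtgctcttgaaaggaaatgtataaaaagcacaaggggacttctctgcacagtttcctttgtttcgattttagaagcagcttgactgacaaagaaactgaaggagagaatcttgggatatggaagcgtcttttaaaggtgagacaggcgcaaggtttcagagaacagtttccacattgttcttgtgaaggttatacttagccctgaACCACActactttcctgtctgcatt
Tigit: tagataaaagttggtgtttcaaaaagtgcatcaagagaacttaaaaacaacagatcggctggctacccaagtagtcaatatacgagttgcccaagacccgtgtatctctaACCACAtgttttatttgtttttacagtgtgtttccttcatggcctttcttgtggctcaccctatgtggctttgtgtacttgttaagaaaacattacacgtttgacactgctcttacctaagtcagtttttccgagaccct
Btla: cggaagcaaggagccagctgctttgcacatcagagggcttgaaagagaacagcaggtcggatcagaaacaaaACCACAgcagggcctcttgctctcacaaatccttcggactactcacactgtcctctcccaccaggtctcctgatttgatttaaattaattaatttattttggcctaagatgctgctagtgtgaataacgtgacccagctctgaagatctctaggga
Ctla4: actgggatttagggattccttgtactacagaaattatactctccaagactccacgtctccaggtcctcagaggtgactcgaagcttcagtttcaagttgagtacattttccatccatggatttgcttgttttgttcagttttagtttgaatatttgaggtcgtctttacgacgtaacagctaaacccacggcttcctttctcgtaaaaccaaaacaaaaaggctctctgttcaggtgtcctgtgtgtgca

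In *Cd96* the motif, written ACCACA on this strand, has its last base 23 bases before the RefSeq start site, and in *Tigit* and *Btla* 135 and 173 bases before it. *Cd160* has 2 RefSeq start sites, and the motif was found 71 bases before the upstream and 96 bases before the downstream of them. Of the other letters searched, TATAAA was found in *Cd96* (12.4% of all windows), CAGGTG in *Ctla4* and *Cd160* (17.2%), and GGAAA, the core bound by NFAT, in *Ctla4*, *Pdcd1*, *Tigit*, *Cd96*, and *Cd160* (55.6%). TGACTCA, the motif of AP-1, and AGGTGTGA, bound by T-box factors, were found in none of the 6 genes, against 4.46% and 1.12% of all windows. CAGGTG and AGGTGTGA share letters and can overlap. These are matches of letters, and binding was not measured.

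Of the ligands of the receptors, 7 of 12 were at 1 CPM or more in both libraries, against 48.9% of the protein-coding genes listed. The median of the ligands was 1.70 CPM per kb. It includes ligands with fewer than 10 counts summed, such as *Cd80*, which the protein-coding median of 5.71 CPM per kb leaves out. *Tnfrsf14*, which encodes HVEM, was the highest at 31.4 ± 8.77 CPM per kb (SD, n = 2), from 607 and 879 counts, and it lay above both of its receptors, *Btla* at 19.99 and *Cd160* at 10.3 CPM per kb. *Cd274*, which encodes PD-L1, followed with 800 and 629 counts, or 11.9 ± 1.78 CPM per kb, close to *Pdcd1* at 13.9 CPM per kb. *Lgals3*, encoding galectin-3, which can bind LAG-3, was at 5.71 CPM per kb. *Cd86* was found at 383 and 281 counts, or 5.49 ± 1.08 CPM per kb, while *Cd80* had 3 and 2 counts, at or under the limit of detection. *Pvr*, which encodes CD155, had 239 and 327 counts, or 2.81 CPM per kb, and *Icosl* 155 and 206. *Nectin1* had 2 and 3 counts, *Nectin2* 0 in both libraries, and *Nectin3* 4 in both.

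**Figure D4:**
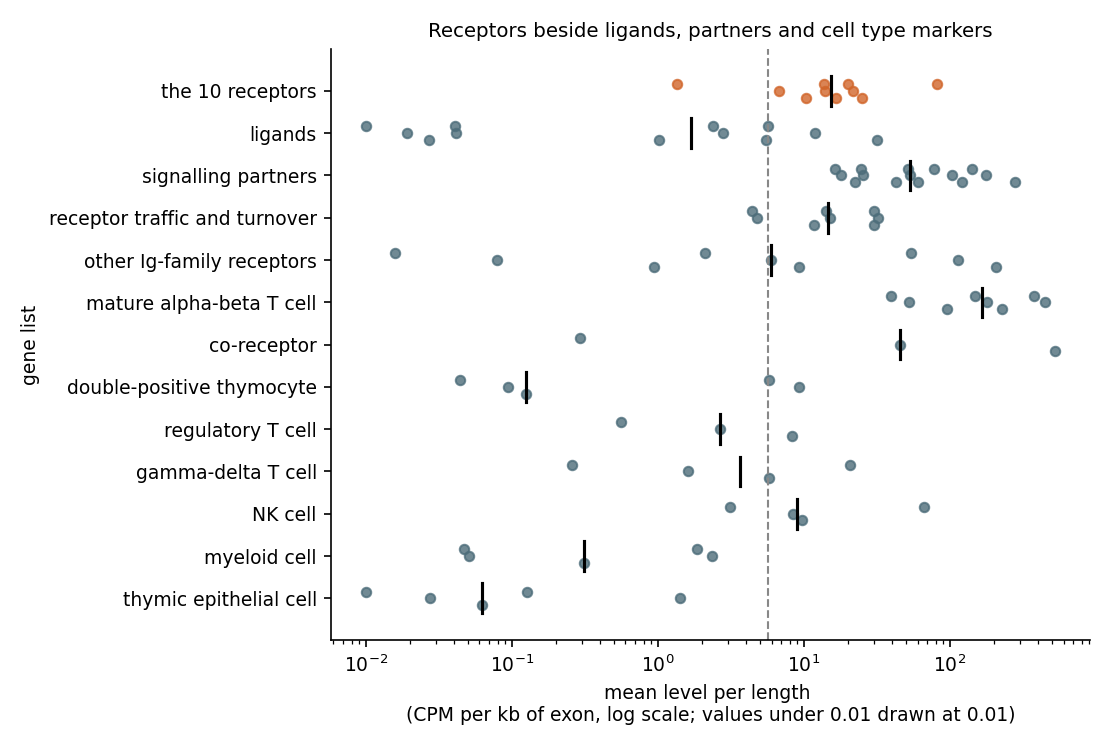
Mean level per length over the replicates (CPM per kb of exon, log scale) of each gene of the lists named on the vertical axis, with a black line for the median of a list. The dashed line is the median of the protein-coding genes with at least 10 counts summed, a limit that the lists do not have. The receptors centre on 15.2 CPM per kb, between the signalling partners at 53.3 and the ligands at 1.70.

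Genes for the signalling partners of these receptors were all expressed, with 15 of 15 at 1 CPM or more in both libraries and levels per length from 16.3 CPM per kb for *Ptpn11* to 277 CPM per kb for *Lck*. *Lck*, the kinase that starts TCR signalling and phosphorylates the tails of CD28 and PD-1, was followed by *Ptpn6*, encoding the phosphatase SHP-1, at 176 ± 5.14 CPM per kb, and *Pik3cd*, encoding the PI3K subunit p110δ, at 142 ± 6.48 CPM per kb. *Ptpn11*, encoding the related phosphatase SHP-2 that PD-1 recruits, was below *Ptpn6* in both libraries, at 15.0 and 17.6 CPM per kb against 172 and 180 CPM per kb. *Inpp5d*, encoding the lipid phosphatase SHIP-1 that acts below TIGIT, was at 25.4 CPM per kb. Genes for the traffic and turnover of the receptors were also all found, 8 of 8 with a median of 14.7 CPM per kb. *Ap2m1*, which encodes the adaptor subunit that takes CTLA-4 from the surface, was at 32.3 CPM per kb, *Cbl*, a ubiquitin ligase gene, at 30.3, and *Adam10*, encoding a protease that sheds LAG-3, at 30.3. *Lrba* and *Trat1*, whose products keep CTLA-4 from degradation and bring it to the surface, were at 4.76 and 4.39 CPM per kb, both above *Ctla4* itself.

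Other receptors of the immunoglobulin family differed widely, with 8 of 10 at 1 CPM or more in both libraries. *Cd2*, an adhesion receptor, was at 206 ± 0.151 CPM per kb, *Cd7* at 114 ± 8.64, and *Vsir*, encoding the inhibitory receptor VISTA, at 53.7 ± 5.40, which placed *Vsir* below *Cd96* and above the other 9 receptors. *Crtam*, a further receptor for nectin-like molecules, was at 9.31 CPM per kb. *PVRIG*, which binds nectin-2 and for which no length was found, had 107 and 109 counts, or 6.55 ± 0.223 CPM. In contrast, *Havcr2*, encoding the checkpoint receptor TIM-3, had 2 and 5 counts, and *Ceacam1* had 1 and 2.

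Since *Ctla4*, *Icos*, *Tigit*, and *Pdcd1* are also high in regulatory T cells and related cells, genes of such cells were examined. *Foxp3* was found at 202 and 201 counts, or 2.67 CPM per kb, *Il2ra* at 49 and 56, and *Ikzf2* at 1534 and 1619, so 3 of 3 genes of regulatory T cells were at 1 CPM or more, with sums of 107 and 115 CPM. All 4 genes of NK cells were found as well, with sums of 282 CPM in replicate 1 and 466 CPM in replicate 2, and so were all 4 of γδ T cells, at 32.8 and 30.5 CPM. Of the protein-coding genes listed, 48.9% reached 1 CPM in both libraries. *Eomes*, which innate memory-like CD8 T cells also express, made up 196 and 355 CPM of the sums for NK cells. *Tcrg-C2* made up 20.4 and 17.5 CPM of the sums for γδ T cells, *Tcrg-C1* 5.80 and 4.80, *Trdc* 5.32 and 7.14, and *Sox13* 1.20 and 1.05. *Ikzf2* made up 91.7 and 99.7 CPM of the sums for regulatory T cells. Mature thymocytes are defined in the study as low for CD24 and high for TCRβ, a gate that would remove cells without TCRβ. Invariant NKT cells, which the study also defines by low CD24 and by TCRβ, could pass this gate. Of the genes of double-positive thymocytes, 2 of 5 reached 1 CPM in both libraries, at sums of 39.7 and 36.5 CPM. These were *Cd1d1*, with 426 and 360 counts, and *Dntt*, with 224 and 211. *Rag1* had 8 and 19 counts, *Rag2* 4 and 1, and *Ptcra* 2 in both. For myeloid cells 3 of 5 and for thymic epithelial cells 1 of 5 reached it, at sums of 15.0 and 16.2 CPM and of 3.71 and 4.19 CPM. In the myeloid list *Csf1r* had 163 and 191 counts, *Cd68* 51 and 47, and *Itgam* 34 and 18, while *Lyz2* had 0 and 2. In the epithelial list *Epcam* had 50 and 53 counts, while *Foxn1* had 1 and 0. The part of such cells in the levels of the receptors was not tested.

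The libraries were compared gene by gene with a two-sided exact binomial test and Benjamini-Hochberg adjustment over the 15949 genes with at least 10 counts summed, which compares these libraries and not conditions and covers counting error only. Of the 10 receptors, 0 differed by at least 2-fold at an adjusted p under 0.05, against 1.52% of all genes tested, and 0 were called by the exact test of edgeR at a fixed biological variation of 0.1, against 0.376% of all genes. In the latter test 0 receptors also had an unadjusted p under 0.05, against 5.17% of all genes. Without the limit on the fold, 3 receptors differed in the binomial test, and 4 had an unadjusted p under 0.05, against 27.7% of all genes. *Cd28* was higher in replicate 2 by 0.37 on the log2 scale (adjusted p = 3.49e-17), *Icos* by 0.25 (adjusted p = 0.000272), and *Lag3* by 0.40 (adjusted p = 0.0261). Of all genes, 13.5% were higher and 2.82% lower in replicate 2 by this rule. With TMM library sizes these shares were 5.17% and 5.39%. *Cd28* and *Icos* then still had an adjusted p under 0.05 in the binomial test, and *Lag3* did not (adjusted p = 0.119). *Cd96*, lower in replicate 2, passed by adjusted p alone (adjusted p = 0.000212). The log2 ratios of the other 7 receptors lay between -0.09 for *Cd96* and 0.20 for *Tigit*, and those of *Cd226* and *Btla*, 0.04 and 0.02, became -0.04 and -0.06 with TMM library sizes.

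**Figure D5:**
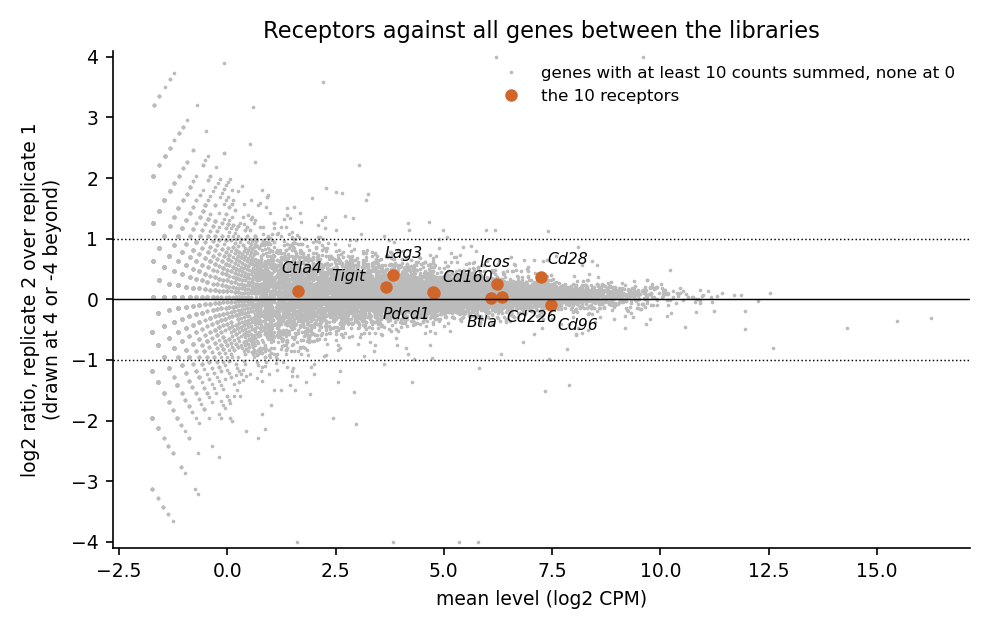
Log2 ratio of replicate 2 over replicate 1, with ratios beyond the axis drawn at its ends, against the mean level (log2 CPM) for the receptors and for all genes tested with counts in both libraries, with dotted lines at a 2-fold difference. All 10 receptors lie between the dotted lines, from -0.09 for *Cd96* to 0.40 for *Lag3*.

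By the same binomial test, which has 1 library on each side, genes listed for NK cells had higher counts in replicate 2. *Eomes*, a T-box factor of NK cells and innate memory-like CD8 T cells, was 1.81-fold higher in replicate 2, with 3275 and 5760 counts (adjusted p = 6.78e-166), and *Ncr1* was 2.56-fold higher, with 45 and 112 counts (adjusted p = 8.24e-07). *Klrk1* and *Klrb1c* were 1.27-fold and 1.24-fold higher there. Of the 8 genes listed for mature αβ T cells, 4 were lower and 0 higher in replicate 2 at an adjusted p under 0.05. Among the ligands, *Tnfrsf14* was 1.49-fold higher in replicate 2 (adjusted p = 1.82e-12), *Pvr* 1.41-fold, and *Icosl* 1.37-fold, while *Cd274* and *Cd86* were at 0.810 and 0.756 of their level in replicate 1. These differences are given with total counts only, with which 13.5% of all genes were higher and 2.82% lower in replicate 2. The part of NK-like cells in the differences of *Cd28*, *Icos*, and *Lag3* was not tested.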

How the data were processed

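RNA-seq was analysed for sorted mature thymocytes of MHC-II0:CD8ab Tg mice in 2 replicates, numbered and grouped by their titles. The authors made poly(A) libraries, obtained single-end reads of 50 bases, aligned them with TopHat2 2.1.1 to mm10 (GRCm38), and deposited raw counts per gene, made with HTSeq 0.6.1 and not normalized. The annotation and strand setting of the counting are not given in the sources used here. The lines at the end of each table, which name no gene, were left out of the totals. Reads on genes were 40.6% of the uniquely aligned reads in replicate 1 and 41.2% in replicate 2.

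CPM and CPM per kb of merged exons (GENCODE M21, in which 46294 listed symbols matched a single gene) were averaged over the replicates, with the SD. Wilson and exact binomial 95% intervals came from statsmodels 0.14.6 and scipy 1.17.1. Libraries were compared by an exact binomial test over all genes with at least 10 counts summed, with a call where the difference reached 2-fold and the adjusted p was under 0.05. The test was first checked on simulated counts that held counting error only. Such counts cannot show calls that come from variation between animals. Alternatives were edgeR 4.0.16 (TMM sizes, exact test with fixed variation), DESeq2 1.42.0 size factors, totals without 393 mitochondrial and ribosomal RNA genes (16.0% and 12.6% of counts on genes), other lengths, other minimum counts and CPM, and each replicate left out. The receptors, the other lists, the motifs, and the pairs were chosen with earlier results of these data known. The genes named are the 10 receptors, their nearest protein-coding neighbours that do not overlap them, and members of these lists, with the 3 highest per length of the lists of ligands, partners, traffic genes, and other receptors. The genes singled out from the remaining lists, the genes of the sex chromosomes, and the motif windows printed, were chosen after their values were seen. The list of B cell genes is not reported here. With a single condition, no likeness of patterns across samples could be measured. Python 3.11.15 and R 4.3.3 were used.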

Additional observations from a re-analysis of the deposited data

How the results depend on the processing

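Each replicate left out, TMM library sizes, and DESeq2 size factors moved none of the 10 levels by more than 1 SD over the replicates, and with 2 replicates the first cannot do so. The TMM and DESeq2 sizes, as used here, shift the 2 libraries in opposite directions about the same mean size. They can therefore hardly move a mean over both libraries, and the lack of change is no sign of robustness. Without mitochondrial and ribosomal RNA genes the totals were smaller, which raised all 10 levels. Of these, 8 moved by more than 1 SD, to 87.1 CPM for *Icos*, 3.65 for *Ctla4*, 31.3 for *Pdcd1*, 14.7 for *Tigit*, 209 for *Cd96*, 94.3 for *Cd226*, 79.3 for *Btla*, and 31.8 for *Cd160*. *Cd28* and *Lag3* rose as well, to 177 and 16.5 CPM, but within their larger SD. The median per length became 17.8 CPM per kb in this setting and 15.9 with the longest or the principal transcript as length. The median of the protein-coding genes is not given for these settings.

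With either of these lengths the ratios became 0.0467 for *Ctla4*, 0.663 for *Icos*, and 0.402 for *Pdcd1* to *Cd28*, and 0.764 for *Tigit* and 4.56 for *Cd96* to *Cd226*. *Btla* to *Cd160* became 4.04 with the principal transcript only. Every ratio stayed on its side of 1. All 10 receptors had at least 0.5 CPM in both libraries, and 9 had at least 5 CPM. The number of receptors that differed between the libraries was 0 in each setting with the 2-fold limit and 3 with the adjusted p alone in the binomial test, but 0 by adjusted p in edgeR's exact test with fixed variation. *Cd28* and *Icos* were among the 3 with total counts, TMM, and DESeq2 sizes. *Lag3* was lost with TMM (adjusted p = 0.119) and DESeq2 sizes (adjusted p = 0.0987), where *Cd96* took its place. Counts of 50 and 53 give *Ctla4* the widest counting interval relative to its level.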
